A study of Homo sapiens with 6 samples.

Results

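The enzymes that build polyunsaturated phospholipids and oxidise them were followed in HT1080 cells, an established human fibrosarcoma line, with and without IFNβ. The genes were ACSL1, ACSL3, ACSL4, LPCAT3, ALOX5, ALOX15, POR, PTGS2, MBOAT1 and MBOAT2. They were chosen by symbol for their place in lipid peroxidation, but with earlier results of these data known. They are 10 of the 62710 genes in the table, and each symbol matched 1 Ensembl ID. In the study, 3 libraries came from cells left untreated and 3 from cells given 20 ng/mL IFNβ for 24 h. The library labels and the cell culture methods of the paper name human IFNβ for this line, whereas its RNA-seq methods name mouse IFNβ. The labels name no edit or transgene in either group, and do not say whether the libraries came from separate cultures. The paper says of its in vitro work in general that replicates were independent, without naming the sequencing. P-values measure the spread between these libraries, which may be technical.

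Ferroptosis is a form of cell death driven by iron-dependent peroxidation of membrane phospholipids. Acyl-CoA synthetases activate free fatty acids, with ACSL4 favouring arachidonic and adrenic acid and ACSL3 favouring monounsaturated chains. Acyltransferases then place the activated chains on lysophospholipids, with LPCAT3 inserting polyunsaturated chains, while MBOAT1 and MBOAT2 are known to favour monounsaturated ones and to restrain ferroptosis. Lipoxygenases such as ALOX5 and ALOX15, and the NADPH-dependent reductase POR, can drive the oxidation itself. PTGS2, the inducible cyclooxygenase COX-2, makes prostaglandin H2 and is widely read as a transcript marker of ferroptosis.

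The recovered number of fragments behind each library lay between 22677224 and 32669574. The untreated library of replicate 1 was the shallowest. IFIT1, ISG15, MX1 and OAS1, 4 interferon-induced genes read as a check of the treatment, were all higher after IFNβ in every library, with ratios of the group means between 103 and 450. Of 6 mesenchymal markers, 5 had a mean of at least 1 FPKM in both groups, whereas THY1 was at or near 0. The 3 epithelial markers summed to between 0.243 and 0.646 FPKM, and CLDN4 among them was higher after IFNβ (limma adjusted p = 0.047), a call that was lost when any library but the untreated one of replicate 1 was left out. The 6 leukocyte markers summed to at most 0.189 FPKM and the 3 endothelial markers to at most 0.441 FPKM. The part of such cells in the results below was not tested. In these bulk libraries, fewer cells that express a gene and less RNA per cell cannot be told apart.

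IFNβ shifted most of the expressed enzymes by small amounts and in both directions. Values are FPKM, fragment numbers divided by the length of the gene and the depth of the library. Genes with a mean of at least 0.1 FPKM over the 6 libraries were tested with limma on log2(FPKM + 0.1), and fold changes below are on that scale unless a ratio of means is named. Of the 10 enzymes, 8 passed the filter, 3 rose (LPCAT3, MBOAT1 and POR), 3 fell (ACSL1, ACSL4 and MBOAT2), and ACSL3 and PTGS2 did not pass the adjusted p threshold of 0.05. Of all 20716 genes tested, 32.7% passed the same threshold, 15.2% higher and 17.5% lower. Among the 11996 genes with a mean of at least 1 FPKM, to which 7 of the enzymes belong, 49.4% passed. None of the 8 enzymes reached an absolute log2 fold change of 1, which 4.22% of genes did together with the p threshold, and none did under any of the alternatives, limma-voom on fragments included. Before adjustment, 7 of the 8 had a limma p under 0.05, the exception being PTGS2. No share of all genes at this unadjusted threshold is given here, so this count cannot be read as an enrichment. The median absolute log2 fold change was 0.28 over the 8 enzymes and 0.23 over all genes tested. In each of the 8, the values of the groups did not overlap, which held for 46.6% of all genes tested.

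**Figure D1:**
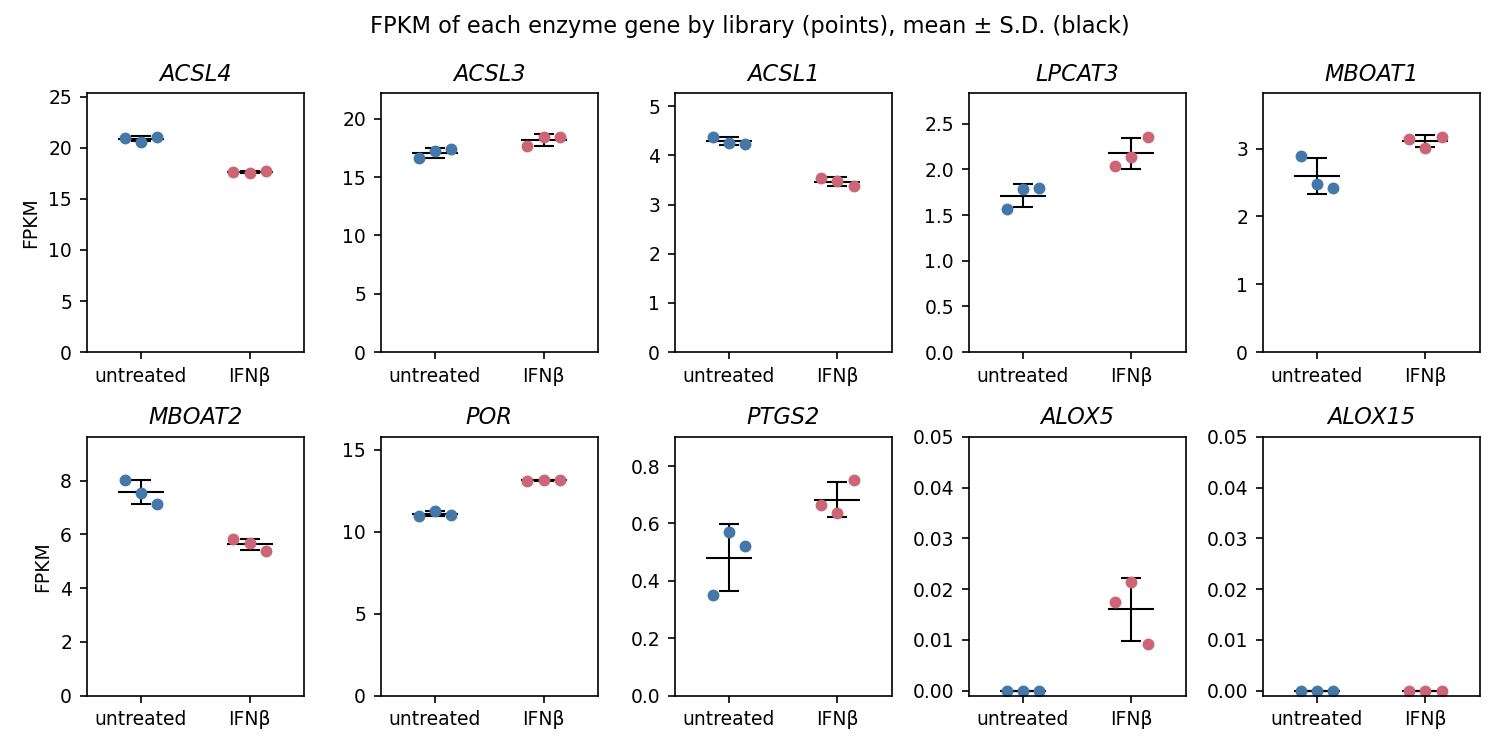
FPKM (vertical axis) of each of the 10 enzyme genes in the 3 untreated libraries (blue points) and the 3 IFNβ-treated libraries (red points), with the group mean and S.D. in black and an axis of its own for each gene. ACSL4, ACSL1 and MBOAT2 lie lower after IFNβ and POR, LPCAT3 and MBOAT1 higher, while ALOX5 and ALOX15 are at or near 0.

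ACSL4 (ENSG00000068366), at X:109624244-109733403 on the minus strand of GRCh38, had the highest deposited FPKM of the enzymes in untreated cells, an order that rests on the gene lengths used. It stood at 20.99, 20.60 and 21.09 FPKM in the untreated libraries. After IFNβ it stood at 17.64, 17.52 and 17.73 FPKM. The libraries of each group lay close together and the groups were well apart. The group means, 20.9 ± 0.256 and 17.6 ± 0.104 FPKM (S.D., n = 3 each), stood in a ratio of 0.844. The log2 fold change was -0.24 (S.E. 0.02, 95% interval -0.29 to -0.20, limma adjusted p = 2.3e-04). Between 4364 and 6922 fragments per library lay behind these values.

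ACSL3 (ENSG00000123983), at 2:222860934-222944639 on the plus strand, moved the other way and by less. It had 16.61, 17.27 and 17.40 FPKM in untreated cells and 17.64, 18.47 and 18.47 FPKM after IFNβ. Every treated library was above every untreated one, but the lowest treated value exceeded the highest untreated value by little beside the spread within the groups. Its log2 fold change was 0.09 (S.E. 0.03, 95% interval 0.02 to 0.16, limma adjusted p = 0.066). It passed the threshold in 5 of 17 alternative analyses, one of which left out the IFNβ library of replicate 1 (0.11, limma adjusted p = 0.046). ACSL3 and ACSL4 had more fragments than any other enzyme of the group.

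ACSL1 (ENSG00000151726), at 4:184755595-184826818 on the minus strand, activates a broad range of long-chain fatty acids. Its level was 4.38, 4.25 and 4.23 FPKM in untreated cells. It was 3.54, 3.47 and 3.37 FPKM in the treated ones. The groups did not overlap, and the mean fell to 0.807 of the untreated mean (log2 fold change -0.30, S.E. 0.04, limma adjusted p = 0.0019). ACSL5, the remaining long-chain synthetase with a level above the filter, averaged 0.238 ± 0.0778 FPKM before and 0.672 ± 0.0454 FPKM after IFNβ (S.D., n = 3 each). At a log2 fold change of 1.21 (S.E. 0.20, limma adjusted p = 0.0049), it was the gene of this family that changed most, from a low level. ACSL6 had at most 0.00536 FPKM in any library.

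The balance of the 2 main synthetases was computed within each library as the log2 ratio of ACSL4 to ACSL3, each with 0.1 FPKM added. It was 0.34, 0.25 and 0.28 in untreated cells. After IFNβ it was 0.00, -0.08 and -0.06. ACSL4 was thus the higher of the pair in all untreated libraries, level with ACSL3 in 1 treated library and below it in the other two. The difference of the group means was -0.33 (exact two-sided permutation test, n = 3 against 3, p = 0.10, the smallest p this design can give). Which gene of the pair is higher depends on the gene length used. The lengths that the deposited FPKM imply are 14436 bp for ACSL3 and 9971 bp for ACSL4, against exon lengths of 7240 and 6415 bp in GENCODE 29. With the latter, ACSL3 was the higher in every library and the balance ran from -0.02, -0.10 and -0.08 to -0.36, -0.43 and -0.42, while the difference of -0.33 stayed the same. ACSL4 made up 49.1% ± 0.457 of the summed FPKM of the 5 ACSL genes in untreated cells and 44.1% ± 0.498 after IFNβ (S.D., n = 3 each). The share of ACSL3 went from 40.2% ± 0.827 to 45.5% ± 0.759, and the sum went from 42.5 ± 0.347 to 40.0 ± 0.417 FPKM. With exon lengths of GENCODE 29 and without ACSL5 and ACSL6, the share of ACSL4 went from 45.7% ± 0.619 to 40.7% ± 0.581 and that of ACSL3 from 48.0% ± 0.772 to 53.9% ± 0.742.

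**Figure D2:**
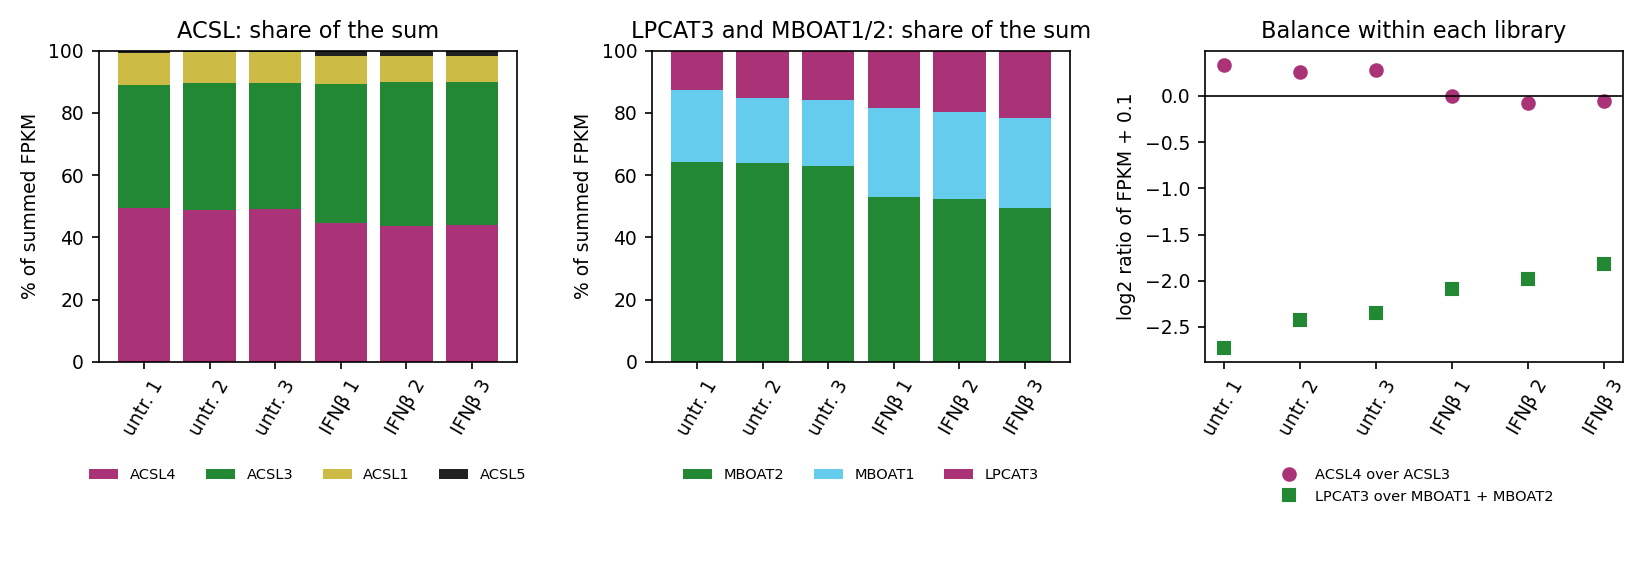
Left and middle, share (%) of the summed FPKM taken by each acyl-CoA synthetase (ACSL6 is too low to be seen) and by LPCAT3, MBOAT1 and MBOAT2 in each of the 6 libraries, on the deposited FPKM. Right, log2 ratios within each library on the deposited FPKM, where ACSL4 over ACSL3 lies between 0.25 and 0.34 in untreated and between -0.08 and 0.00 in IFNβ-treated libraries, and LPCAT3 over the sum of MBOAT1 and MBOAT2 is higher in the 3 treated libraries.

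Among LPCAT3, MBOAT1 and MBOAT2, the last (ENSG00000143797, at 2:8852690-9003813 on the minus strand) had the highest deposited level and was the only one to fall. Its values were 8.02, 7.55 and 7.13 FPKM in untreated cells. They were 5.82, 5.68 and 5.39 FPKM after IFNβ. The highest treated library was below the lowest untreated one. The log2 fold change was -0.42 (S.E. 0.05, 95% interval -0.55 to -0.29, limma adjusted p = 0.0015), the most negative of the 8 enzymes. The mean fell to 0.744 of its untreated level.

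MBOAT1 (ENSG00000172197), at 6:20102145-20212399 on the minus strand, had 2.89, 2.48 and 2.42 FPKM in untreated cells and 3.14, 3.01 and 3.18 FPKM after IFNβ. The untreated library of replicate 1 was apart from its group and close to the treated ones. The log2 fold change was 0.25 (S.E. 0.08, limma adjusted p = 0.048), just inside the threshold. Leaving out any 1 of 5 libraries (both other untreated ones and each treated one) raised the adjusted p to between 0.085 and 0.13, with log2 fold changes between 0.21 and 0.28. Without the untreated library of replicate 1 the fold change was 0.33 and the adjusted p 0.0093.

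LPCAT3 (ENSG00000111684), at 12:6976186-7018510 on the minus strand, had 1.57, 1.78 and 1.79 FPKM in untreated cells. It had 2.03, 2.13 and 2.36 FPKM after IFNβ. The groups did not overlap, with the lowest value in the untreated library of replicate 1. The log2 fold change was 0.33 (S.E. 0.09, 95% interval 0.12 to 0.53, limma adjusted p = 0.028). It missed the threshold without the untreated library of replicate 1, 2 or 3 or the IFNβ library of replicate 2 or 3, with log2 fold changes between 0.27 and 0.36 and adjusted p between 0.051 and 0.087. Of its exon length in GENCODE 29, 65.6% is shared with EMG1, a ribosome biogenesis gene on the opposite strand, and whether the counting used strand is not given in the sources used here. EMG1 itself had 2.99 FPKM in untreated and 2.80 FPKM in treated cells (log2 fold change -0.09, limma adjusted p = 0.49). The part of EMG1 fragments in the LPCAT3 values was not tested.

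The balance of LPCAT3 to the sum of MBOAT1 and MBOAT2, on the log2 scale with 0.1 FPKM added to each side, was -2.72, -2.43 and -2.35 in untreated cells. It was -2.09, -1.98 and -1.82 after IFNβ. All treated libraries were above all untreated ones, by 0.54 between the means (exact two-sided permutation test, n = 3 against 3, p = 0.10, again the smallest possible). As a share of the 3 acyltransferases, LPCAT3 went from 14.5% ± 1.71 to 19.9% ± 1.56, MBOAT1 from 21.8% ± 1.19 to 28.5% ± 0.642 and MBOAT2 from 63.7% ± 0.725 to 51.6% ± 1.97 (S.D., n = 3 each). The deposited FPKM imply a length of 4325 bp for MBOAT1, against 1794 bp of exons in GENCODE 29. With the latter length MBOAT1 weighed more in the sum, and the difference of the balance was 0.40. The shares then went from 11.1% ± 1.43 to 14.2% ± 1.06 for LPCAT3, from 40.5% ± 1.67 to 49.2% ± 0.787 for MBOAT1 and from 48.4% ± 0.556 to 36.6% ± 1.58 for MBOAT2 (S.D., n = 3 each), so that MBOAT1 had the larger share after IFNβ.

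Among the oxidising enzymes, only POR and PTGS2 were at a level that could be tested. POR (ENSG00000127948), at 7:75899200-75986855 on the plus strand, passes electrons from NADPH to cytochromes P450. It had 10.99, 11.27 and 11.05 FPKM in untreated cells. It had 13.11, 13.13 and 13.15 FPKM after IFNβ, with a tight spread in both groups and no overlap. The group means were 11.1 ± 0.149 and 13.1 ± 0.0194 FPKM (S.D., n = 3 each). It rose by 0.24 on the log2 scale (S.E. 0.02, 95% interval 0.19 to 0.29, limma adjusted p = 4.0e-04).

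PTGS2 (ENSG00000073756), at 1:186671791-186680427 on the minus strand, had 0.351, 0.572 and 0.521 FPKM in untreated cells, from 44, 93 and 94 fragments. It had 0.663, 0.635 and 0.751 FPKM after IFNβ, from 112, 87 and 119 fragments. The treated libraries were all higher, but the gap between the groups was smaller than the spread among the untreated libraries. The log2 fold change was 0.45 (S.E. 0.19, 95% interval -0.00 to 0.90, limma adjusted p = 0.12). Without the untreated library of replicate 1 it was 0.28 (limma adjusted p = 0.23). On the recovered fragments, limma-voom gave 0.49 with an adjusted p of 0.030.

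Both lipoxygenases were close to silent. ALOX15 (ENSG00000161905), at 17:4630902-4642294, was at 0 fragments in all 6 libraries. At an exon length of 3404 bp, 3 fragments, the limit that a count of 0 allows, are worth between 0.0268 and 0.0386 FPKM. ALOX5 (ENSG00000012779), at 10:45374176-45446119, was at 0 fragments in the untreated libraries and at 2, 2 and 1 fragments after IFNβ, or at most 0.0215 FPKM. Both groups were at or under 3 fragments, so a difference was not detectable at this depth. These limits cover counting error only.

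**Figure D3:**
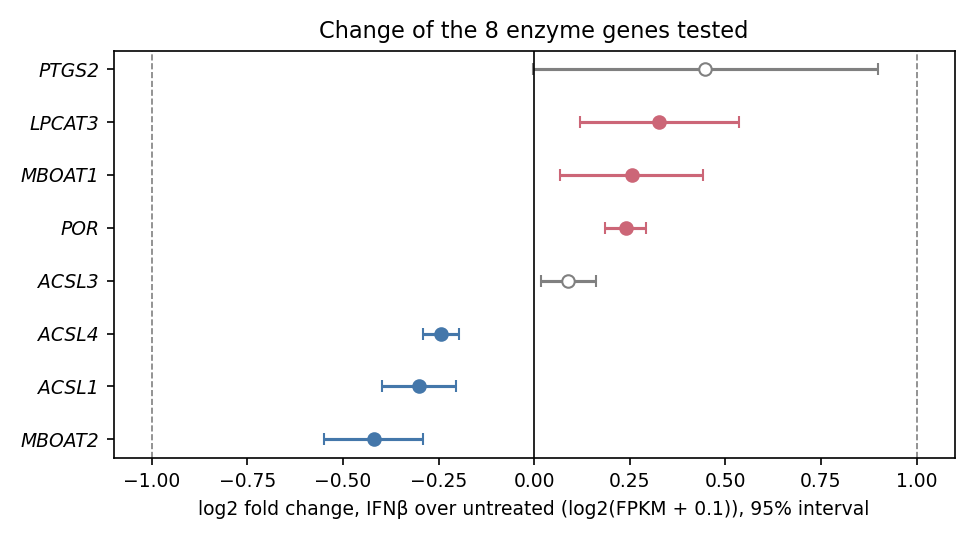
log2 fold change (horizontal axis, IFNβ over untreated, on log2(FPKM + 0.1)) of the 8 enzyme genes tested, with the 95% interval of the limma fit. Filled points passed an adjusted p of 0.05 (red higher, blue lower), open points did not, and dashed lines mark a log2 fold change of 1 in either direction, which no gene reached.

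Ordered by level, the enzymes kept nearly the same ranks. In untreated cells the order on the deposited FPKM was ACSL4, ACSL3, POR, MBOAT2, ACSL1, MBOAT1, LPCAT3 and PTGS2, and no neighbours overlapped in their ranges. After IFNβ the order was the same except that ACSL3 and ACSL4 overlapped, with the mean of ACSL3 the higher. ACSL1 and MBOAT1 had means of 4.29 and 2.60 FPKM before and 3.46 and 3.11 FPKM after IFNβ. The order depends on the lengths. With the exon lengths of GENCODE 29, ACSL1 was at 4.44 and 3.58 FPKM and thus below MBOAT1 in both groups. MBOAT1 was at 6.26 FPKM before and 7.49 FPKM after IFNβ and MBOAT2 at 7.48 and 5.56 FPKM, so that MBOAT1 and MBOAT2 then changed places.

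The stretch before the start of transcription was read for 2 motifs of interferon signalling. These were the core of the interferon-stimulated response element, GAAANNGAA, and the STAT element, TTCNNNGAA, on both strands, in the 250 bases before each RefSeq start on GRCh38.p14. They can overlap each other. The former was in 6.88% and the latter in 6.57% of all 35116 such windows. Windows were at hand for 6 of the 10 enzymes, namely ACSL1, ACSL3, ACSL4, LPCAT3, PTGS2 and MBOAT2, with 5 starts for ACSL1. None of these 10 windows held the response element core, and 1 start of ACSL1 held a STAT element. The response element core was in a window of 3 of the 4 interferon genes used as a check (IFIT1, ISG15 and MX1). A match or its absence says only which letters stand in the window.

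The sequences of 2 of the 3 enzymes that fell and of LPCAT3 are shown as examples without either motif, and those of ACSL1 and ISG15 to show the matches. They are from RefSeq, 5′ to 3′ in the direction of transcription, and only the part outside all exons of GENCODE 29 is given, with motif letters in capitals. The ACSL4 stretch (minus strand, chrX:109733404-109733507) and the MBOAT2 stretch (minus strand, chr2:9003814-9003934) are rich in G and C. The LPCAT3 stretch is on the minus strand at chr12:7018511-7018726. The ACSL1 stretch is on the minus strand at chr4:184812360-184812409, with its STAT element beginning 138 bases before that start. The ISG15 stretch is on the plus strand at chr1:1013364-1013413, with 3 overlapping cores.
ACSL4: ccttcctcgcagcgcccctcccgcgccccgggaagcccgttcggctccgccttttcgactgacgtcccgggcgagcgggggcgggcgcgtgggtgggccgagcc
MBOAT2: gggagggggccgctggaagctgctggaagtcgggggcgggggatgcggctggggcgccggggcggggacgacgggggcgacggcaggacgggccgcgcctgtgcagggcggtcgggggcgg
LPCAT3: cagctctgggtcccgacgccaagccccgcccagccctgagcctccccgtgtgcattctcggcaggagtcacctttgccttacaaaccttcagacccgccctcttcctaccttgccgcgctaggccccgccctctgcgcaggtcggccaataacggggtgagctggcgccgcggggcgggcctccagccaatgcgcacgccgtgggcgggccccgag
ACSL1: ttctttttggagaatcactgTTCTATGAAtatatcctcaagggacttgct
ISG15: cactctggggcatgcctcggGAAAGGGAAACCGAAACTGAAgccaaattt

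Around the 10 enzymes, 100 further genes were listed, 14 of them transcription factors linked to these enzymes and the rest from the same pathways. Of the 100, 77 were tested, 21 rose, 22 fell and 34 did not pass. This is 55.8% called, against 32.7% of all genes tested and 49.4% of those with a mean of at least 1 FPKM. The counts of the single lists are to be read against the same shares. The 12 tested transcription factors had 83.3% called and so raised the share over the 77. Of the 77, 3 also reached an absolute log2 fold change of 1, as 4.22% of all genes did. These were ACSL5 and 2 of the transcription factors, IRF1 included. Of the other acyl-CoA synthetases, 6 of 10 were tested, 2 rose and 1 fell. Besides ACSL5, the fatty acid transport protein SLC27A1 rose from 1.81 ± 0.125 to 2.59 ± 0.180 FPKM and SLC27A4, at 25.9 ± 0.478 FPKM before and 23.0 ± 1.22 FPKM after IFNβ, fell (S.D., n = 3 each). The SLC27A4 call was lost without the untreated library of replicate 1 or 2 or the IFNβ library of replicate 3, with log2 fold changes between -0.21 and -0.14 over all omissions.

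The other lysophospholipid acyltransferases moved in both directions. All 11 were tested, 4 rose, 4 fell and 3 did not pass, with a median log2 fold change of -0.02. MBOAT7, which places arachidonic acid on lysophosphatidylinositol, rose and had 30.8 ± 0.674 FPKM before and 38.3 ± 0.600 FPKM after IFNβ (S.D., n = 3 each). AGPAT5, at 18.4 ± 0.773 FPKM before and 12.8 ± 0.169 FPKM after IFNβ (S.D., n = 3 each), had the largest fall of the list (log2 fold change -0.52, S.E. 0.03, limma adjusted p = 1.1e-04). LPGAT1, with a log2 fold change of -0.47, and LPCAT1, an enzyme that makes saturated phosphatidylcholine, with -0.34, fell as well.

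Of the enzymes that desaturate and lengthen polyunsaturated chains, all 11 were tested, 1 rose, 3 fell and 7 did not pass, so that 36.4% were called, near the share of all genes. Their median log2 fold change was -0.04. FADS1, the delta-5 desaturase that yields arachidonic acid, fell and had 25.4 ± 0.695 FPKM before and 20.2 ± 0.396 FPKM after IFNβ (S.D., n = 3 each, limma adjusted p = 2.8e-04). FADS2, the desaturase before it in the pathway, had 18.7, 18.5 and 17.5 FPKM in untreated and 17.6, 19.0 and 18.5 FPKM in treated cells, and the groups overlapped (log2 fold change 0.01, with a sign that changed between omitted libraries). HACD2 fell to 0.770 of its untreated mean and ELOVL5 to 0.879, while FADS3 rose to 1.19 times its mean. The call of ELOVL5 was lost without the untreated library of replicate 2 or 3 or the IFNβ library of replicate 1 or 2, with log2 fold changes between -0.23 and -0.16 over all omissions. In the synthesis of saturated and monounsaturated chains, 5 of 6 genes were tested, 2 rose (ELOVL7 and ELOVL1, with log2 fold changes of 0.50 and 0.26) and 1 fell (SCD5, -0.35). SCD, the main stearoyl-CoA desaturase, had between 169 and 184 FPKM in all libraries and did not pass (log2 fold change 0.04, limma adjusted p = 0.60).

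Phospholipases A, which release fatty acids from phospholipids, were the list with the highest median, 0.54 on the log2 scale against 0.00 for all genes tested. Of 10 genes, 6 were tested, 5 rose and none fell. PLA2G4A, the cytosolic phospholipase that releases arachidonic acid, had 0.502, 0.574 and 0.633 FPKM in untreated and 1.15, 1.13 and 1.26 FPKM in treated cells. PLA2G4C went from 0.208 ± 0.00311 to 0.427 ± 0.0192 FPKM (S.D., n = 3 each). PLAAT3 had 7.80, 7.93 and 8.28 FPKM in untreated and 15.2, 15.1 and 15.8 FPKM in treated cells, and rose by 0.93 on the log2 scale (S.E. 0.03, limma adjusted p = 6.6e-06). PLA2G15, a lysosomal enzyme, rose by 0.23 on the log2 scale, and its call was lost when any library but the untreated one of replicate 1 was left out, with log2 fold changes down to 0.18. The exception was PLA2G6, with a log2 fold change of 0.30 (limma adjusted p = 0.19).

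Of the ether lipid genes, which supply polyunsaturated plasmalogens, all 8 were tested, none rose and 4 fell. GNPAT and AGPS, the peroxisomal enzymes that begin the pathway, fell to 0.750 and 0.839 of their untreated means. SELENOI, which makes ethanolamine phospholipids, and FAR1, which supplies the fatty alcohol, fell to 0.833 and 0.888. The median log2 fold change of the list was -0.15.

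On the oxidising side, of 6 lipoxygenases and partners, 3 were tested and 1 fell, PEBP1, a scaffold that binds ALOX15, with 78.5 ± 2.15 FPKM before and 68.8 ± 2.05 FPKM after IFNβ (S.D., n = 3 each). ALOX12 had between 0.522 and 0.891 FPKM with overlapping groups and no stable sign, and 18.8% of its exon length is shared with an antisense gene. Of 14 electron transfer genes and oxidases, 9 were tested, none rose and 2 fell, CYB5R4 (log2 fold change -0.54) and CYB5B (-0.24, with 35.1% of its exon length shared with a noncoding gene listed at 0). CYB5R1, a reductase that is known to drive lipid peroxidation together with POR, had 4.30, 4.75 and 4.36 FPKM in untreated and 5.22, 4.68 and 5.17 FPKM in treated cells, and the groups overlapped (limma adjusted p = 0.092, and 0.046 at the least over the alternatives). In prostanoid synthesis and breakdown, 6 of 10 genes were tested, 1 rose and 2 fell. PTGS1, the constitutive cyclooxygenase, went from 0.102 ± 0.0435 to 0.288 ± 0.0114 FPKM (S.D., n = 3 each, limma adjusted p = 0.025) and PTGES2 and PTGES3, prostaglandin E synthases, fell to 0.802 and 0.901 of their untreated means. PTGS1 had as few as 12 fragments in a library, and its call was lost when any library but the untreated one of replicate 1 was left out, with log2 fold changes between 0.85 and 1.13. PTGES3 has processed pseudogenes, with which its fragments may be shared.

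**Figure D4:**
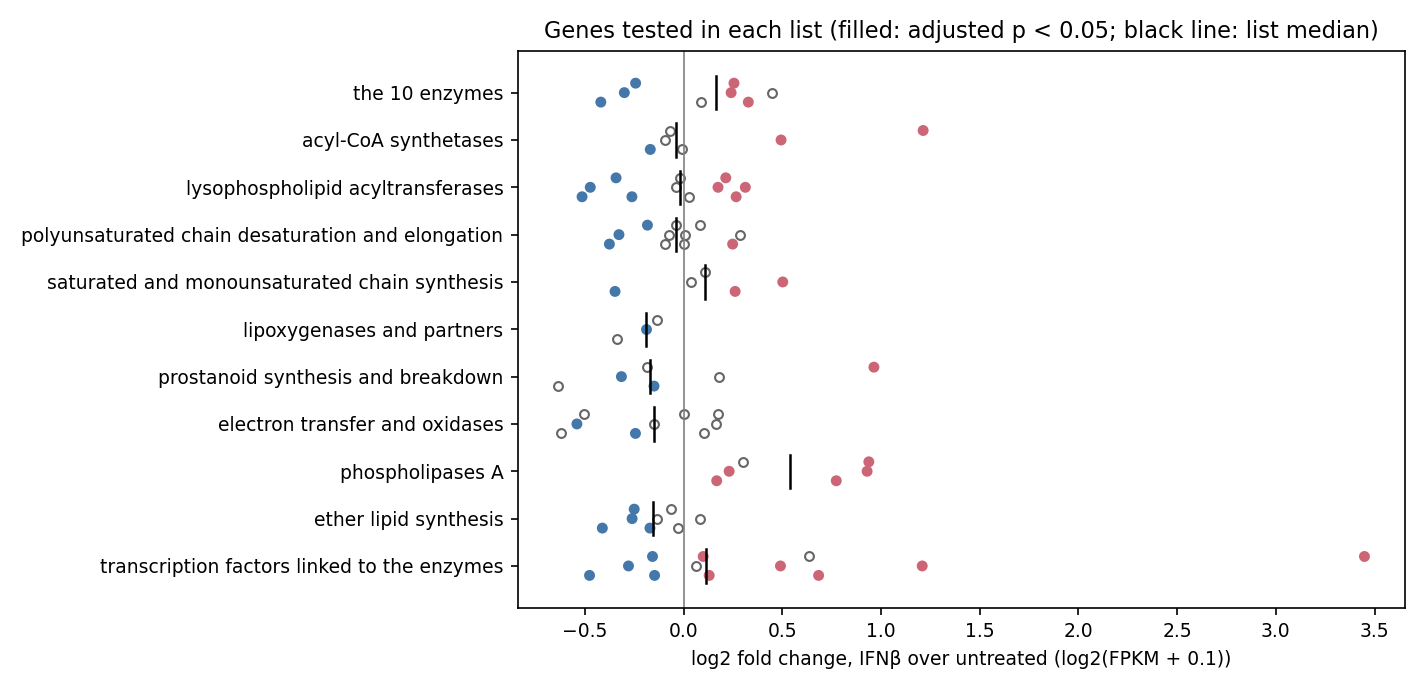
log2 fold change (horizontal axis, IFNβ over untreated, on log2(FPKM + 0.1)) of every tested gene of each list, 1 point a gene. Filled points passed an adjusted p of 0.05 (red higher, blue lower) and black lines are list medians, the highest being that of the phospholipases A at 0.54.

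Of 14 transcription factors linked to these enzymes, 12 were tested, 6 rose and 4 fell. IRF1, an interferon-induced factor, rose from 1.84 ± 0.251 to 4.37 ± 0.0525 FPKM and STAT3 from 11.9 ± 0.575 to 19.2 ± 0.713 FPKM (S.D., n = 3 each). IRF1 shares 1716 bp of its exons with C5orf56 on the opposite strand. SREBF1, a master regulator of lipogenic genes, rose with a log2 fold change of 0.49 (S.E. 0.06, limma adjusted p = 0.0016). The oestrogen receptor ESR1, which is known to activate MBOAT1, is named here with its values already known. It was low, at between 0.0565 and 0.0925 FPKM in untreated and between 0.146 and 0.179 FPKM in treated cells (limma adjusted p = 0.11, and 2.0e-04 with limma-voom). Its untreated mean of 0.0725 FPKM was under the filter of 0.1 FPKM, which ESR1 passed only through the treated libraries (mean 0.167 FPKM). Neither p-value is therefore read as a result.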

How the data were processed

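RNA-seq was analysed from 6 HT1080 libraries, 3 untreated and 3 given IFNβ. By the methods of the paper, mRNA was enriched and sequenced on an Illumina NovaSeq instrument. The submitters' processing notes name fastp, HISAT2, StringTie and GRCh38. What the authors deposited is 1 FPKM value for each gene and library, with no pooling. Gene lengths, annotation and strandedness are not given in the sources used here. Whole fragments were recovered from the FPKM for 100% of the 35303 genes above 0 (tolerance 1e-06), and 4436 gene IDs are not in GENCODE 29, so the authors used another annotation.

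The main test was limma 3.58.1 in R 4.3.3 (lmFit, then eBayes with trend) of log2(FPKM + 0.1). It covered genes averaging at least 0.1 FPKM, with Benjamini-Hochberg adjustment over all of them. This scale understates the change of low genes. The recovered fragments were tested with limma-voom as an alternative, which called 3741 genes higher and 4191 lower. The procedure was tested on simulated data. Balances were compared by exact permutation in Python 3.11.15 (scipy 1.17.1). Replicate libraries differed by more than counting error (chi-square per degree of freedom 1.78 to 3.38). Alternatives were other pseudocounts, filters, scalings and thresholds, eBayes without trend, a replicate block and leaving out each library.

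The enzymes and lists were chosen with earlier results of these data known. Named were all 10 enzymes and up to 4 called genes of each list with the largest absolute log2 fold change, and genes named beside them were chosen after their values were seen. Some genes that the lists count are not reported here by name.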

Additional observations from a re-analysis of the deposited data

How the results depend on the processing

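The 3 falls (ACSL1, ACSL4 and MBOAT2) and the rise of POR kept their direction and call in all 17 alternatives, an adjusted p threshold of 0.01 included. Of the single genes recomputed, 2 reversed, both uncalled throughout: FADS2 (-0.021 without the untreated library of replicate 3 or -0.016 without the IFNβ library of replicate 2, and -0.021 to 0.037 over all omissions) and ALOX12 (0.027 without the IFNβ library of replicate 3, and -0.31 to 0.027 over all omissions). Of the 8 enzymes tested, 3 rose in the main analysis. This number was 1 after quantile normalization, which moved the median over all genes tested to -0.06 on the log2 scale, and 1 at an adjusted p under 0.01. It was 5 with limma-voom on recovered fragments, where ACSL3 and PTGS2 were called too, and between 1 and 3 when libraries were left out in turn. In all of these POR remained. LPCAT3 lost its call in 7 and MBOAT1 in 12 alternatives, and the cause was not tested. Listed genes past both thresholds, transcription factors included, numbered 3 in the main analysis. They numbered 1 with a pseudocount of 1, 6 with a pseudocount of 0.01 and 7 with limma-voom.

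Same-numbered libraries did not deviate together (correlations 0.05, -0.02 and 0.12), so the numbers were not taken as pairs. With a replicate block, 3 enzymes rose and 3 fell, with ACSL3 called and MBOAT1 not (adjusted p = 0.066), and PTGS1 lost its call. The balances are -0.33 and 0.54 under the block by construction (exact sign-flip permutation of the pairs, p = 0.25, the smallest possible with 3 pairs). Leaving out libraries gave -0.36 to -0.31 for ACSL4 to ACSL3 and 0.43 to 0.62 for LPCAT3 to the MBOAT pair, and exon lengths of GENCODE 29, added after seeing the data, gave -0.33 and 0.40. Genes named beside the rule were recomputed after seeing the data. At this depth ALOX5 and ALOX15 could not be compared.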
